A study of Mus musculus with 12 samples.

Results

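The Toll-like receptors were followed in RNA-sequencing of whole mouse skin as the 10 genes Tlr1 to Tlr9 and Tlr13, chosen by symbol and matched to the Ensembl IDs of the count table, which listed 52636 genes. All 10 were found, and all 10 passed the filter on low counts that left 17993 tested genes. The 12 libraries, 3 per group, came from BALB/c wild-type mice in 4 groups. Control mice received the vehicle of LL37, and control + RAPA mice the same vehicle and rapamycin (RAPA). LL37 mice received the peptide LL37, and LL37 + RAPA mice both agents. The study describes its control and LL37 mice as also given a vehicle where others received RAPA. LL37 is the human cathelicidin peptide, and RAPA inhibits the kinase complex mTORC1. All mice were 8 weeks old and shaved on the back, and they were injected intradermally with 40 μl, 2 times per day for 2 days. For mice of this strain the methods give RAPA by intraperitoneal injection at 4 mg/kg per day. LL37-injected skin is a model of rosacea-like dermatitis after 2 days of injection into otherwise normal mice, and the groups carry no genetic change. The 3 libraries per group are described as independent biological samples.

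Toll-like receptors detect molecules of microbes and of damaged cells. Tlr2 works at the cell surface with Tlr1 or Tlr6 as a partner and binds bacterial lipopeptides, Tlr4 binds lipopolysaccharide with the help of Ly96 and Cd14, and Tlr5 binds flagellin. Tlr3, Tlr7, Tlr8, Tlr9 and Tlr13 sit in endosomes. Tlr3 binds double-stranded RNA, Tlr7 single-stranded RNA, Tlr9 unmethylated CpG DNA and Tlr13 bacterial ribosomal RNA. All members but Tlr3 signal through the adaptor Myd88, and the pathway ends in NF-kB and interferon regulatory factors. In skin, the receptors are known from resident and recruited myeloid cells and, for some members, from keratinocytes, and LL37 is known to bind nucleic acids and carry them into endosomes.

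The members lie on 7 chromosomes of GRCm38 and do not all stand alone. Tlr1 (chromosome 5, 64924679 to 64933563) and Tlr6 (chromosome 5, 64952031 to 64960097) are neighbours on the minus strand, 18.5 kb apart. Tlr8 and Tlr7 are neighbours on the minus strand of chromosome X, 40.6 kb apart, and Tlr13 (chromosome X, 106143204 to 106160493) is on the plus strand far from both. Tlr2 is at 83836272 to 83841767 on chromosome 3, Tlr4 at 66827584 to 66930284 on chromosome 4, and Tlr9 at 106222598 to 106226883 on chromosome 9. Only Tlr3, among the 10 members, shares exon bases with another annotated gene, Gm45542 on the other strand, which had 0 counts in all 12 libraries.

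Tlr1 and Tlr6 also share sequence. Of the 45 pairs of members, theirs was the only one with any stretch of 50 identical bases in the GENCODE M21 transcripts, and the longest identical run was 229 bases, against at most 18 bases in any other pair. Shared stretches of 50 bases made up 13.6% of those of Tlr1 and 12.3% of those of Tlr6. The run, which is coding in both genes (chr5:64925537-64925765 in Tlr1 and chr5:64953828-64954056 in Tlr6, minus strand), is shown because a read that falls inside it cannot be assigned to either gene by its sequence.
Tlr1 and Tlr6, shared: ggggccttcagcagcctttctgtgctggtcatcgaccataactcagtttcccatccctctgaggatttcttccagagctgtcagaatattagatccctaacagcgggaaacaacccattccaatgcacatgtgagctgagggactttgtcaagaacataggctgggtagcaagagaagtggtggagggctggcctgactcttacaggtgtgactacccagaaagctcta
How the authors' counting treated such reads was not given in the sources used here, so the counts of Tlr1 and Tlr6 are uncertain by their share of reads in these stretches, and that share is not known from a table of counts.

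The sequences just upstream of the members differ, and those of 6 members are shown since they stand for different behaviours in the comparisons that follow. They come from RefSeq on GRCm38.p6, written 5′ to 3′ on the gene's own strand and cut to the bases ahead of both the RefSeq and the GENCODE start. Of the 10 members, 8 had an entry, and Tlr4 and Tlr7 are named only. Motifs were searched on both strands as GGNNNTTCC (a short form of the NF-kB site), GAGGAA (PU.1, the myeloid factor), GAAANNGAA (an interferon response element) and TGANTCA (AP-1), and matches are in capitals. The partners Tlr1 (chr5:64933564-64933808), Tlr2 (chr3:83841768-83841858) and Tlr6 (chr5:64960098-64960298), all on the minus strand, read as follows.
Tlr1: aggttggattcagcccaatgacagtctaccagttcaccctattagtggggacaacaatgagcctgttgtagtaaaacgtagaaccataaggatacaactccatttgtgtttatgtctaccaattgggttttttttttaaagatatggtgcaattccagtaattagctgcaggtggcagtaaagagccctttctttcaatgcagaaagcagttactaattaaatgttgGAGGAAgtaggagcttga
Tlr2: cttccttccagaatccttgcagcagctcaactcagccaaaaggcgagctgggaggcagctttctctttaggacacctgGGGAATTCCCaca
Tlr6: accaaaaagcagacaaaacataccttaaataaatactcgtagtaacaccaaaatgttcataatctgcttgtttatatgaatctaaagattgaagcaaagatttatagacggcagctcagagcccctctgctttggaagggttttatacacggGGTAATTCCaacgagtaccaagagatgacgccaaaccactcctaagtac
Tlr5 (chr1:182954538-182954787, plus strand), the member with the smallest fold change in LL37 vs control, Tlr9 (chr9:106222348-106222597, plus strand) and Tlr13 (chrX:106143025-106143203, plus strand) read as follows.
Tlr5: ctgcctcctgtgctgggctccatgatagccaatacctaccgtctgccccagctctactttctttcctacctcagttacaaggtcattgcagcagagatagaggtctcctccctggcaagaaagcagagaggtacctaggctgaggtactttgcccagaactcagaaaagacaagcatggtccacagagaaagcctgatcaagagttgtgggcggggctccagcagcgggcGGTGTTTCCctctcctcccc
Tlr9: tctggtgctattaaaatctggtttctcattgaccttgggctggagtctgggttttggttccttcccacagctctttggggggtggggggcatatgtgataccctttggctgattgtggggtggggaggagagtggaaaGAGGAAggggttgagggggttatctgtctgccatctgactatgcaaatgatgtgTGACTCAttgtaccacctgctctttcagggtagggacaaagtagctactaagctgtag
Tlr13: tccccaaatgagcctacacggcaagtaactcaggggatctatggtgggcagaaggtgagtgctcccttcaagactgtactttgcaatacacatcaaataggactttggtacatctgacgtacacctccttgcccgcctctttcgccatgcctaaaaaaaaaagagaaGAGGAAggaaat
The NF-kB letters stood in Tlr2, on both strands of 1 overlapping palindrome, and in Tlr6 and Tlr5, while Tlr1, Tlr9 and Tlr13 held the PU.1 letters and Tlr9 the AP-1 letters. Of the members with an entry that are not shown, Tlr8 held 1 PU.1 and 1 interferon response match in its 250 bases. The entry of Tlr3 had no bases ahead of both starts. Among all 32851 windows of 300 bases in the same table, 18.5% held the NF-kB letters, 28.3% the PU.1 letters, 8.56% the interferon response letters and 7.81% the AP-1 letters. The stretches shown are shorter, at 91 to 250 bases, so these shares are not for like lengths. The matches are a description of these letters, and both a member that changed and one that did not pass the test in LL37 vs control held the NF-kB letters.

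In control skin the receptors were lowly expressed, at means of 3.03 to 8.02 CPM (counts scaled to the TMM-normalized total of each library, in the usual unit of that name). Depth was 15734559 to 23271784 counts per library, so 3 counts, taken as the floor, stood for 0.129 to 0.191 CPM, and the lowest member value, of Tlr9 in control replicate 2, rested on 15 counts. LL37 replicate 3 stood apart from the other LL37 libraries, at 64.4 on the first principal component of all genes against 133 and 129, while the control libraries lay at -62.6 to -50.2. Its 10 neutrophil markers summed to 164 CPM, against 604 and 762 CPM in the other LL37 libraries, and its 10 skeletal muscle markers to 695 CPM, against 18.5 and 20.02 CPM, where control had 32635 to 47855 CPM. Beside the receptors and pathway genes whose call it decides or that it holds far below the other LL37 libraries, values without it are given. The 8 keratinocyte markers of the labelled tissue summed to 26378 to 42554 CPM over all libraries and to 26378 to 34250 CPM in control. The muscle sum was 34750 to 62053 CPM in control + RAPA and 2736 to 5912 CPM in LL37 + RAPA. The libraries without LL37 thus held far more muscle RNA than those with it. The part of this difference in the receptor levels was not tested.

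LL37 vs control asks which receptors change when the peptide is injected. Of the 10 members, 8 rose and none fell. Tlr1 rose most, 13.7-fold, followed by Tlr2 (7.56-fold), Tlr13 (5.27-fold) and Tlr6 (4.09-fold), then Tlr4, Tlr8 and Tlr7 (2.33- to 2.68-fold) and Tlr3 (1.55-fold), whereas Tlr5 and Tlr9 did not pass the test. The test was edgeR's quasi-likelihood F-test with Benjamini-Hochberg adjustment over all 17993 genes, at an adjusted p under 0.05, and a DEG (differentially expressed gene) also needed an absolute log2 fold change above 1. Over all tested genes, 42.6% passed in either direction and 21% passed as higher. The 8 members that passed were higher, and 7 of the 10 were DEGs, where 8.73% of all tested genes were DEGs that rose. The libraries of the groups did not overlap for 8 members and for 49.7% of all tested genes. The median log2 fold change was 1.42 over the members and -0.005 over all tested genes. Leaving out single libraries gave 6 to 9 members, with 8 without LL37 replicate 3, while 2819 to 4541 of all tested genes passed as higher.

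Among the surface receptors, Tlr2, the shared subunit of the lipopeptide receptors, stood at 8.08, 3.94 and 9.05 CPM in control and at 79.8, 61.8 and 17.8 CPM in LL37. Its log2 fold change was 2.92 (SE 0.52, adjusted p = 0.000989). Its partner Tlr1 stood at 3.61, 1.54 and 3.95 CPM in control and at 43.4, 60.2 and 20.7 CPM in LL37. The log2 fold change of Tlr1 was 3.77 (SE 0.45, adjusted p = 8.19e-05). For both genes every LL37 library lay above every control library, and LL37 replicate 3 was the lowest of the LL37 libraries. Without that library the log2 fold changes were 4.12 for Tlr1 and 3.36 for Tlr2.

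The other partner, Tlr6, had a smaller fold change than Tlr1, from 3.50, 2.25 and 3.68 CPM in control to 13.8, 18.9 and 6.07 CPM in LL37 (log2 fold change 2.03, SE 0.36, adjusted p = 0.00101). Tlr4, the lipopolysaccharide receptor, stood at 9.86, 6.15 and 8.05 CPM in control and at 24.8, 25.5 and 14.2 CPM in LL37. Its log2 fold change was 1.42 (SE 0.30, adjusted p = 0.00295). Neither gene's LL37 and control libraries overlapped, and replicate 3 was again lowest in LL37. Without that library the log2 fold changes were 2.40 for Tlr6 and 1.68 for Tlr4. Tlr5, the flagellin receptor, stood at 7.76, 5.63 and 5.32 CPM in control and at 6.69, 4.96 and 5.79 CPM in LL37. The groups overlapped for Tlr5, and the log2 fold change was -0.10 with a 95% interval of -0.51 to 0.31 (adjusted p = 0.701), inside the DEG limit on both sides.

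Of the endosomal receptors, Tlr13 led. It stood at 8.03, 4.40 and 8.42 CPM in control and at 34.7, 44.1 and 31.1 CPM in LL37, a log2 fold change of 2.40 (SE 0.37, adjusted p = 0.000424). Its LL37 libraries lay close together, with replicate 3 not far below the others. Tlr8 went from 4.15, 2.10 and 3.84 CPM to 9.73, 9.30 and 7.86 CPM (log2 fold change 1.41, SE 0.36, adjusted p = 0.00804). Its neighbour on chromosome X, Tlr7, a receptor for single-stranded RNA, went from 5.12, 3.59 and 6.79 CPM to 12.9, 7.35 and 15.9 CPM (log2 fold change 1.22, SE 0.33, adjusted p = 0.0118). For Tlr7 the order inside the LL37 group was turned, with replicate 3 the highest library and replicate 2 the lowest, and without control replicate 2 the adjusted p was 0.0509.

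Tlr3, the receptor for double-stranded RNA, rose by the least, from 7.76, 5.94 and 7.95 CPM to 13.8, 8.51 and 11.2 CPM. Its log2 fold change of 0.63 (SE 0.20, adjusted p = 0.0242) was below the DEG limit. The call was lost without control replicate 2 (adjusted p = 0.0995), without LL37 replicate 1 (adjusted p = 0.115) and in a fit of the compared groups only (adjusted p = 0.0782). Tlr9, the CpG DNA receptor, had the widest spread of the members in control, at 3.07, 0.768 and 6.999 CPM, and stood at 11.2, 4.16 and 10.5 CPM in LL37. These groups overlapped, and the log2 fold change of 1.26 did not pass the test (SE 0.57, 95% interval 0.01 to 2.51, adjusted p = 0.0975). It passed without control replicate 3 (log2 fold change 2.16, adjusted p = 0.0135) and without LL37 replicate 2 (1.63, adjusted p = 0.0461).

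**Figure D1:**
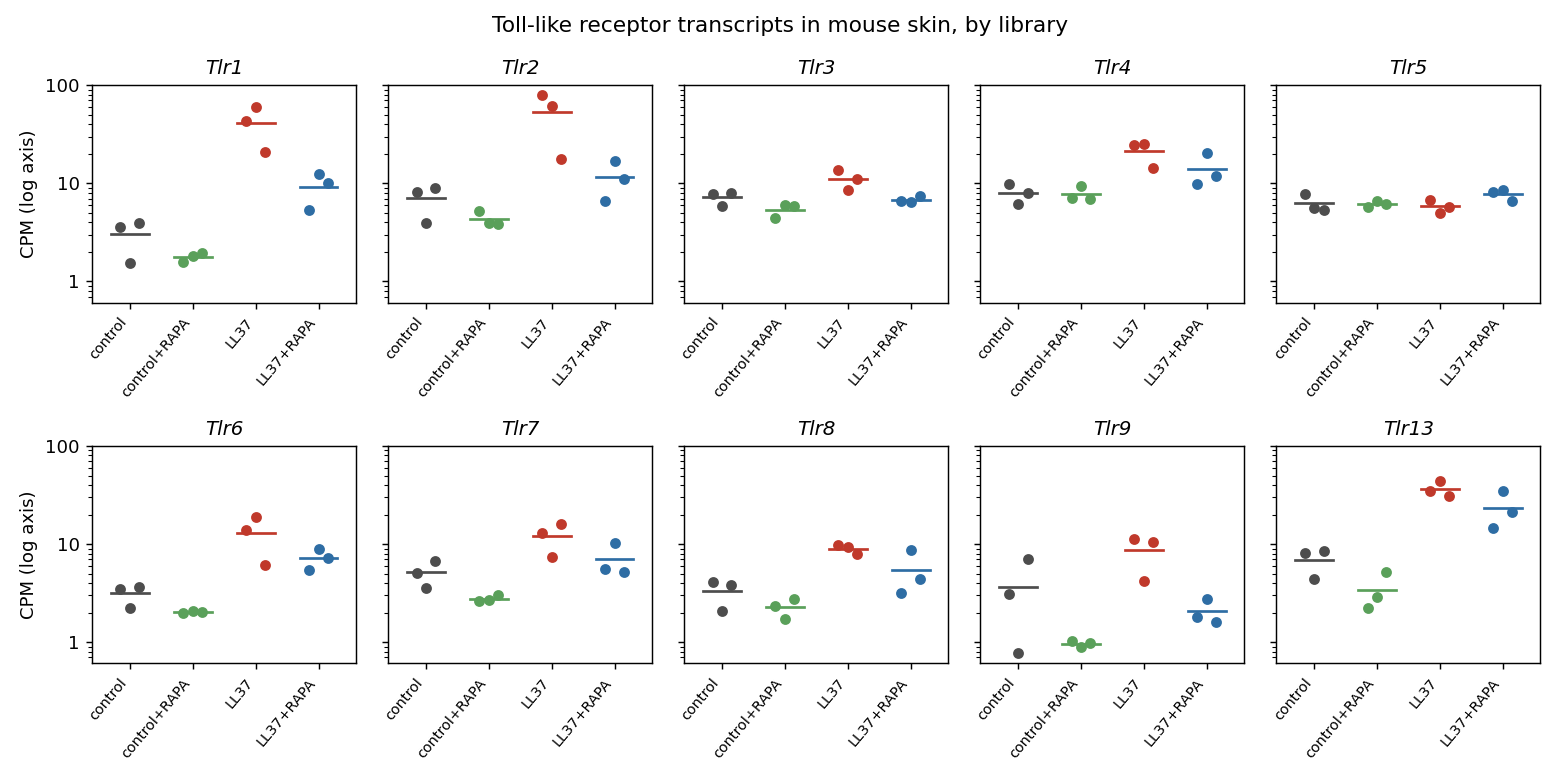
CPM (library-scaled counts, log axis) of the 10 receptor genes in the 4 groups, with 1 point per library in replicate order and a bar at the group mean of 3 libraries. Tlr1 and Tlr2 show the largest step from control to LL37, the Tlr5 libraries of LL37 and control overlap, and the Tlr13 libraries of LL37 + RAPA all lie above control.

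Markers of other cell types moved in the same comparison. Of the 7 tested neutrophil markers 6 rose and 1, Mpo, fell, and their list summed to 26.6 to 48.1 CPM in control and 164 to 762 CPM in LL37. Ly6g, Ngp and Elane of that list were below the filter. Of the 12 monocyte and macrophage markers 10 rose, at summed levels of 774 to 1339 CPM in control and 2194 to 2450 CPM in LL37. In whole skin, more cells of a type and more RNA per cell cannot be told apart. The 5 B cell markers, whose cells also carry Tlr9, were all below the filter, with 0 to 15 counts per library and Ms4a1 at 0 in 9 of 12 libraries. Of the 9 dendritic and Langerhans cell markers 2 rose (37.7 to 51.0 CPM in control, 55.0 to 63.1 CPM in LL37), and of 6 tested T cell markers 1 rose (14.0 to 16.3 CPM against 18.0 to 22.0 CPM). None of 6 mast cell markers passed. The 10 muscle markers and the 5 adipocyte markers all fell, of 8 keratinocyte markers 3 rose and 1 fell, of 5 fibroblast markers 2 rose, and of 5 endothelial markers 1 fell. The part of these cell types in the receptor levels was not tested.

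LL37 vs LL37 + RAPA asks which receptor levels differ when RAPA is given with the peptide. Tlr1, Tlr2 and Tlr9 were 4.16- to 4.58-fold higher in LL37 than in LL37 + RAPA and Tlr3 1.64-fold higher, and the other 6 members did not pass the test. Over all tested genes 24.2% passed, and 11.8% passed as higher in LL37. Of the members 4 of 10 passed, all higher in LL37, and 3 of 10 were DEGs, where 4.33% of all tested genes were DEGs higher in LL37. The groups did not overlap for 4 members and for 38.3% of all tested genes, and an unadjusted p under 0.05 was reached by 7 members and by 38% of all tested genes. The median log2 fold change was 0.75 over the members and -0.004 over all tested genes. The count was 2, namely Tlr1 and Tlr2, without LL37 replicate 1, LL37 + RAPA replicate 1 or LL37 + RAPA replicate 3. It was 6 without LL37 replicate 3, when Tlr4 (adjusted p = 0.0323) and Tlr6 (adjusted p = 0.0029) were added. The calls over all genes moved too, with 896 to 3200 tested genes higher in LL37 when 1 library was left out. Without LL37 replicate 3, 17.4% of all tested genes passed as higher and 34.8% in either direction.

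Tlr1 stood at 5.36, 12.4 and 10.04 CPM in LL37 + RAPA, below all LL37 libraries, and differed by 2.16 on the log2 scale (SE 0.41, adjusted p = 0.00482). Without LL37 replicate 3 its difference was 2.48 (adjusted p = 0.000282). Tlr2 stood at 6.64, 16.9 and 11.2 CPM and differed by 2.20 (SE 0.50, adjusted p = 0.0101). The Tlr2 groups were parted by a small gap, since LL37 replicate 3 was at 17.8 CPM, and without that library the difference was 2.61 (adjusted p = 0.000266). Both genes passed in all 20 alternatives run for this comparison.

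Tlr9 stood at 1.80, 2.78 and 1.62 CPM in LL37 + RAPA, and its difference from LL37 was 2.06 (SE 0.59, adjusted p = 0.0275). No LL37 + RAPA library reached the lowest LL37 library of 4.16 CPM. The call was lost without LL37 replicate 1, LL37 + RAPA replicate 1 or LL37 + RAPA replicate 3 (adjusted p = 0.094, 0.0946 and 0.092). Tlr3, at 6.54, 6.50 and 7.39 CPM, differed by 0.72 (SE 0.20, adjusted p = 0.0244), also without overlap. That call was lost in the fit of the compared groups only (adjusted p = 0.0609), without LL37 replicate 1 (0.112) and without LL37 + RAPA replicate 1, 2 or 3 (0.0832, 0.0698 and 0.0506).

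The remaining surface receptors overlapped between the groups. Tlr4 stood at 9.91, 20.2 and 11.8 CPM in LL37 + RAPA, and its difference of 0.62 had a 95% interval of -0.02 to 1.26 (adjusted p = 0.146). Tlr6 stood at 5.45, 8.87 and 7.25 CPM, with a difference of 0.84 (95% interval 0.09 to 1.58, adjusted p = 0.0946). Tlr5, the only member that was lower in LL37, stood at 8.15, 8.55 and 6.62 CPM, with a difference of -0.42 (95% interval -0.83 to -0.01, adjusted p = 0.122).

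Among the remaining endosomal receptors, Tlr13 stood at 14.6, 35.0 and 21.1 CPM in LL37 + RAPA. The highest of these libraries lay inside the LL37 range, and the difference of 0.63 did not pass the test (SE 0.35, 95% interval -0.12 to 1.39, adjusted p = 0.2). Tlr7 stood at 5.55, 10.2 and 5.22 CPM (difference 0.78, 95% interval 0.07 to 1.499, adjusted p = 0.101) and Tlr8 at 3.18, 8.67 and 4.37 CPM (difference 0.72, 95% interval -0.03 to 1.48, adjusted p = 0.149). LL37 + RAPA replicate 2 was the highest library of its group for 9 of the 10 members, all but Tlr3. It also had the largest monocyte and macrophage sum of the group, 2926 CPM against 1801 and 1954 CPM. Its neutrophil (316 CPM), dendritic and Langerhans cell (63.1 CPM), mast cell (278 CPM) and fibroblast (5700 CPM) sums were the group's highest as well. That library was the group's lowest in the T cell, adipocyte and muscle sums. Without it, Tlr4 (difference 0.98, adjusted p = 0.0372), Tlr7 (1.16, adjusted p = 0.036) and Tlr8 (1.24, adjusted p = 0.023) passed, and Tlr7 also without LL37 replicate 2 (1.04, adjusted p = 0.0426). The shares of all tested genes in these fits are not given here. Over all fits with 1 library left out, 896 to 3200 tested genes were higher in LL37.

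Myeloid markers overlapped between these groups in their sums. The monocyte and macrophage sum was 1801 to 2926 CPM in LL37 + RAPA, with replicate 2 above every LL37 library (2194 to 2450 CPM), although 6 of the 12 markers were higher in LL37 by the test. The neutrophil sum was 127 to 316 CPM, with replicates 2 and 3 above LL37 replicate 3 at 164 CPM, and 1 of 7 tested markers, Cxcr2, was higher in LL37. T cell markers summed to 10.02 to 10.4 CPM in LL37 + RAPA, below the 18.0 to 22.0 CPM of LL37, and 3 of 6 tested markers were higher in LL37. The B cell sum was 0.676 to 0.9 CPM, against 0.551 to 1.04 CPM in LL37. Of the other lists, 3 of 8 keratinocyte markers and 1 of 9 dendritic and Langerhans cell markers were higher in LL37, and 1 of 5 endothelial, 5 of 5 adipocyte and 10 of 10 muscle markers were lower. The part of these cells in the receptor differences was not tested.

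**Figure D2:**
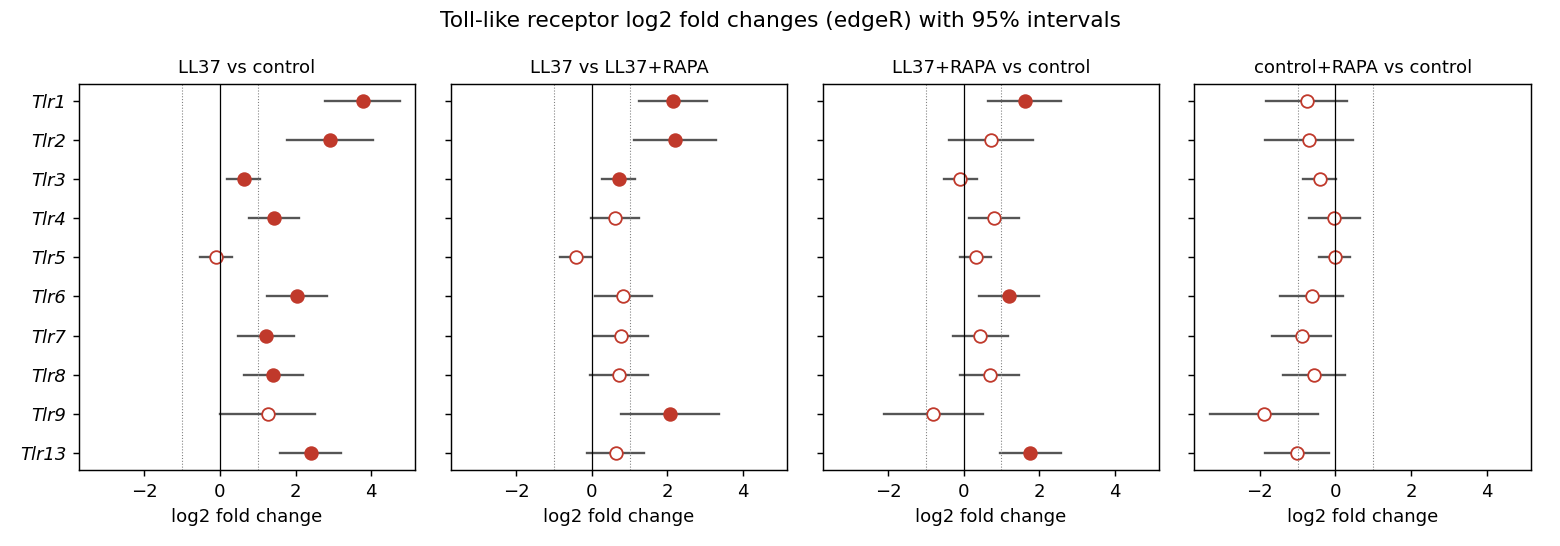
Log2 fold changes of the 10 receptor genes from edgeR in 4 comparisons, with bars for 95% intervals (12 libraries in 1 fit, 3 per group), filled points for an adjusted p under 0.05 and dotted lines at an absolute log2 fold change of 1. In LL37 vs control 8 points are filled, in LL37 vs LL37 + RAPA 4, in LL37 + RAPA vs control 3 and in control + RAPA vs control none.

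LL37 + RAPA vs control asks which receptors still differ from control skin under RAPA, and it shares the LL37 + RAPA libraries with the previous comparison and the control libraries with the first. Tlr13 remained 3.40-fold, Tlr1 3.06-fold and Tlr6 2.29-fold higher than control, and the other 7 members did not pass the test. Over all tested genes 14% passed, and 5.03% passed as higher. The 3 members that passed, of 10, were all higher DEGs, where 2.15% of all tested genes were. The groups did not overlap for 4 members and for 36.4% of all tested genes. The median log2 fold change was 0.71 over the members and 0.005 over all tested genes.

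Tlr13 had a log2 fold change of 1.76 (SE 0.37, adjusted p = 0.00744), with its lowest LL37 + RAPA library, 14.6 CPM, above the highest control library, 8.42 CPM. It passed in all 20 alternatives. Tlr1 (1.61, SE 0.44, adjusted p = 0.0301) and Tlr6 (1.19, SE 0.36, adjusted p = 0.0466) also had groups that did not overlap. Their calls were lost in several fits with 1 library left out. Over such fits the log2 fold change stayed at 1.28 to 1.89 for Tlr1 and at 0.99 to 1.36 for Tlr6. The number of all tested genes that passed as higher ranged from 312 to 1563. Only Tlr13 passed without control replicate 1, 2 or 3, or without LL37 + RAPA replicate 2 or 3. In those fits the adjusted p was 0.0518 to 0.123 for Tlr1 and 0.0856 to 0.172 for Tlr6. The calls of Tlr1 and Tlr6 were also lost with a block for the label's replicate number (adjusted p = 0.0644 and 0.0782). The call of Tlr6 was lost as well without LL37 replicate 1 (0.0592) and without control + RAPA replicate 1, 2 or 3 (0.0615 to 0.0655), libraries that enter this comparison through the shared estimate of the spread. Tlr4 did not pass (0.80, adjusted p = 0.105), though its groups did not overlap, as for 36.4% of all tested genes. It passed in 2 of 20 alternatives, without LL37 replicate 3 (adjusted p = 0.0423) and with scaling to library size only (adjusted p = 0.0489).

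Tlr2 was not called, with a log2 fold change of 0.72 (95% interval -0.38 to 1.82, adjusted p = 0.399). Tlr3 (-0.08, 95% interval -0.52 to 0.36) and Tlr5 (0.32, 95% interval -0.09 to 0.72) did not pass. Their intervals held 0 and lay inside the DEG limit on both sides, that of Tlr5 mostly above 0. Tlr9 (-0.80, 95% interval -2.10 to 0.51), Tlr7 (0.44, 95% interval -0.29 to 1.17) and Tlr8 (0.69, 95% interval -0.09 to 1.47) did not pass either. Beside these values, 4 of 7 neutrophil markers and 3 of 12 monocyte and macrophage markers were higher in LL37 + RAPA than in control, as were 1 of 9 dendritic and Langerhans cell, 1 of 6 mast cell and 1 of 5 fibroblast markers, while 1 of 6 T cell and 6 of 10 muscle markers were lower. Their part in the receptor levels was not tested.

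Control + RAPA vs control asks what RAPA does to the receptors without the peptide. None of the 10 members passed, as none of the 17993 tested genes did (0% called). At an unadjusted p under 0.05, which 8.65% of all genes (1556) reached, 3 members were lower, namely Tlr9, Tlr13 and Tlr7. All 10 fitted values were negative, with a median of -0.66 against -0.006 over all tested genes, although those of Tlr4 (-0.03) and Tlr5 (-0.02) were near 0 and changed sign when single libraries were left out. Tlr7 stood at 2.60, 2.66 and 3.05 CPM with RAPA, below all control libraries (log2 fold change -0.90, SE 0.35, adjusted p = 0.519). Tlr13 stood at 2.22, 2.86 and 5.23 CPM (-1.02, SE 0.39, adjusted p = 0.513), with 1 library inside the control range.

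Tlr9 stood at 1.03, 0.888 and 0.978 CPM with RAPA, inside the wide control range of 0.768 to 6.999 CPM (-1.90, SE 0.65, adjusted p = 0.489), and on 17 to 19 counts per library. Without control replicate 3, the highest, its log2 fold change was -1.005. Tlr6, at 2.005, 2.07 and 2.01 CPM, did not overlap with control either (-0.63, adjusted p = 0.685), and groups of this kind made up 15.7% of all tested genes. Tlr1 (1.57, 1.83 and 1.96 CPM), Tlr2 (5.26, 3.90 and 3.85 CPM), Tlr3 (4.39, 5.97 and 5.81 CPM), Tlr4 (7.15, 9.47 and 6.96 CPM), Tlr5 (5.69, 6.56 and 6.15 CPM) and Tlr8 (2.33, 1.73 and 2.76 CPM) overlapped with their control libraries. Control replicate 2 was the lowest control library for 9 of the 10 members. It also had the lowest monocyte and macrophage sum of the control group, 774 CPM against 1168 and 1339 CPM. Its neutrophil, dendritic and Langerhans cell, mast cell, fibroblast, endothelial, adipocyte and muscle sums were the lowest as well. Its keratinocyte sum was the group's highest (34250 CPM). The part of these cell types in the receptor levels was not tested. In control + RAPA the monocyte and macrophage sum was 751 to 895 CPM, and none of its 12 markers passed.

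The interaction asks whether the RAPA difference in LL37 skin exceeds that in control skin. No member passed, where 3.28% of all tested genes did (590), and Tlr1 alone of the 10 reached an unadjusted p under 0.05, as 22.5% of all tested genes did. The value was 1.40 for Tlr1 (SE 0.63, adjusted p = 0.218) and 1.5 for Tlr2 (SE 0.72, adjusted p = 0.242), so for both the difference between LL37 and LL37 + RAPA was larger than that between control and control + RAPA, but not beyond the test. Without LL37 replicate 3, both passed (1.72, adjusted p = 0.0427, and 1.92, adjusted p = 0.0232), for each the only 1 of 19 alternatives in which it did. The share of all tested genes that passed the interaction in that fit is not given here. In LL37 vs LL37 + RAPA the same fit called 34.8% of all tested genes in either direction, against 24.2% with all libraries. For Tlr9 the value was 0.16 (95% interval -1.80 to 2.12), and for Tlr13 -0.39 (95% interval -1.52 to 0.75), intervals that hold changes above 1 on the log2 scale.

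Per length of exon, the make-up of the family shifted in LL37. CPM per kb of exon, which allows levels of different genes to be set side by side, put Tlr2 first in control (2.33 ± 0.90, SD, n = 3), followed by Tlr13 (1.61 ± 0.51) and Tlr4 (1.44 ± 0.33), with Tlr1 (0.906 ± 0.39) and Tlr6 (0.844 ± 0.21) last. No neighbours in that order were apart beyond their libraries. In LL37 the order was Tlr2 (17.6 ± 10.6), Tlr1 (12.4 ± 5.9) and Tlr13 (8.52 ± 1.56), then after a gap Tlr4, Tlr6, Tlr7, Tlr8, Tlr9 and Tlr3 (3.87 to 2.15), and after another gap Tlr5 (1.21 ± 0.18). Within each of these 3 blocks neighbours overlapped.

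In LL37 + RAPA the order was Tlr13 (5.48 ± 2.41), Tlr2 (3.84 ± 1.71) and Tlr1 (2.76 ± 1.07), and every neighbouring pair overlapped except Tlr3 and Tlr9, the last (0.595 ± 0.18). Tlr9 was also last in control + RAPA (0.277 ± 0.02) and apart there from Tlr1, the next. Tlr2 (1.44 ± 0.26), Tlr4 (1.41 ± 0.25) and Tlr5 (1.28 ± 0.09) led control + RAPA, apart from Tlr3 below them. Tlr1 and Tlr2 together made up 20.8 to 26.2% of the summed member level in control, 20.5 to 27.1% in control + RAPA, 33.6 to 57.8% in LL37 and 23.5 to 31.3% in LL37 + RAPA. The lowest LL37 share was that of replicate 3, whose 5 surface receptors summed to 17.5 CPM per kb against 49.0 and 49.2 in the others, while the 5 endosomal receptors summed to 17.5 to 19.8 in all 3 libraries.

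**Figure D3:**
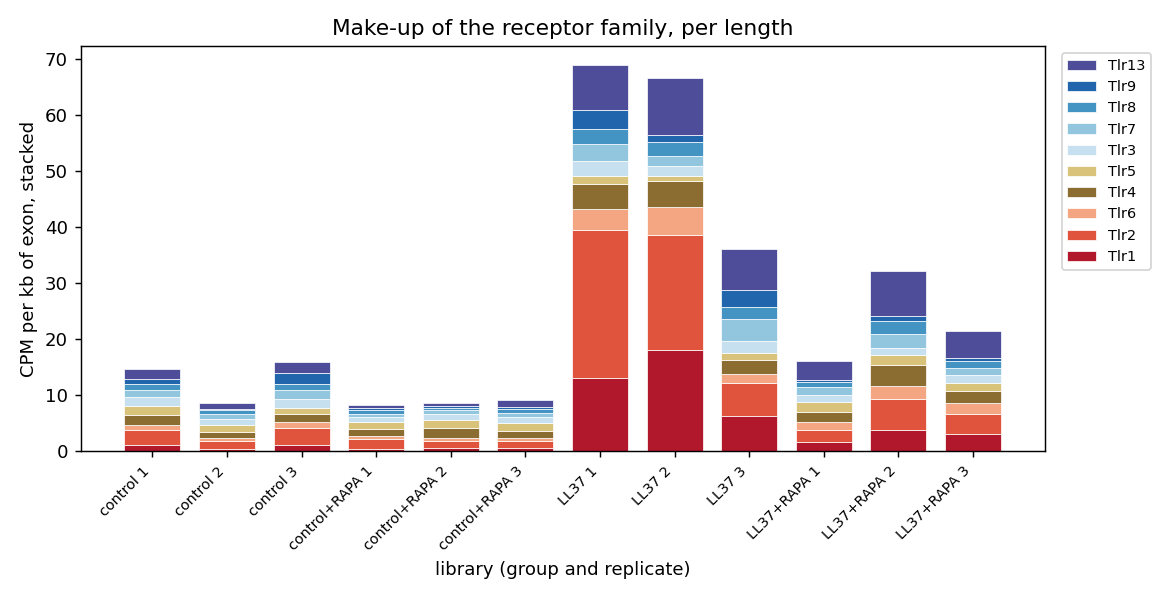
Stacked level of the 10 receptor genes in each of the 12 libraries, in CPM per kb of exon. LL37 replicates 1 and 2 owe most of their height to Tlr1 and Tlr2, and LL37 replicate 3 has a like endosomal part but a smaller surface part.

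The partners of Tlr2 differed in their ratio between groups. Tlr1 and Tlr6 were about level per length in control, at ratios of 1.15, 0.759 and 1.19, and in control + RAPA at 0.873, 0.981 and 1.08. In LL37 the Tlr1 to Tlr6 ratio was 3.50, 3.55 and 3.799, and in LL37 + RAPA 1.09, 1.55 and 1.54. The LL37 libraries, replicate 3 included, thus lay close together and above all others, while the levels of both genes varied about 3-fold among them (Tlr1 20.7 to 60.2 CPM, Tlr6 6.07 to 18.9 CPM). By an exact two-sided permutation test on log2 ratios the p was 0.1 for LL37 against control and 0.1 against LL37 + RAPA, the smallest that 3 against 3 libraries allow, and 0.2 after adjustment over the 18 ratio comparisons made. The identical stretches of the pair lie in both genes, and their effect on the ratio was not tested.

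Other ratios differed in how they stood in LL37 + RAPA. Tlr2 to Tlr6 was 2.16 to 3.04 in control, 3.63 to 7.15 in LL37 and 1.51 to 2.35 in LL37 + RAPA. Its LL37 libraries thus also lay above both, like those of Tlr1 to Tlr6 (exact permutation p = 0.1 each, adjusted 0.2). Tlr2 to Tlr1 went from 2.49, 2.85 and 2.55 in control to 2.04, 1.14 and 0.956 in LL37 and 1.38, 1.52 and 1.23 in LL37 + RAPA, so both LL37-injected groups lay below control (exact permutation p = 0.1 each, adjusted 0.2). Tlr13 to Tlr7 was 1.17 to 1.49 in control, 1.86 to 5.70 in LL37 and 2.50 to 3.83 in LL37 + RAPA, again with both above control (exact permutation p = 0.1 each, adjusted 0.2). Tlr7 to Tlr9 was 0.98 to 1.504 in LL37 and 2.62 to 3.12 in LL37 + RAPA, without overlap (exact permutation p = 0.1, adjusted 0.2), but 0.826 to 3.98 in control. Tlr7 to Tlr8, the neighbours on chromosome X, overlapped in all 3 comparisons.

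**Figure D4:**
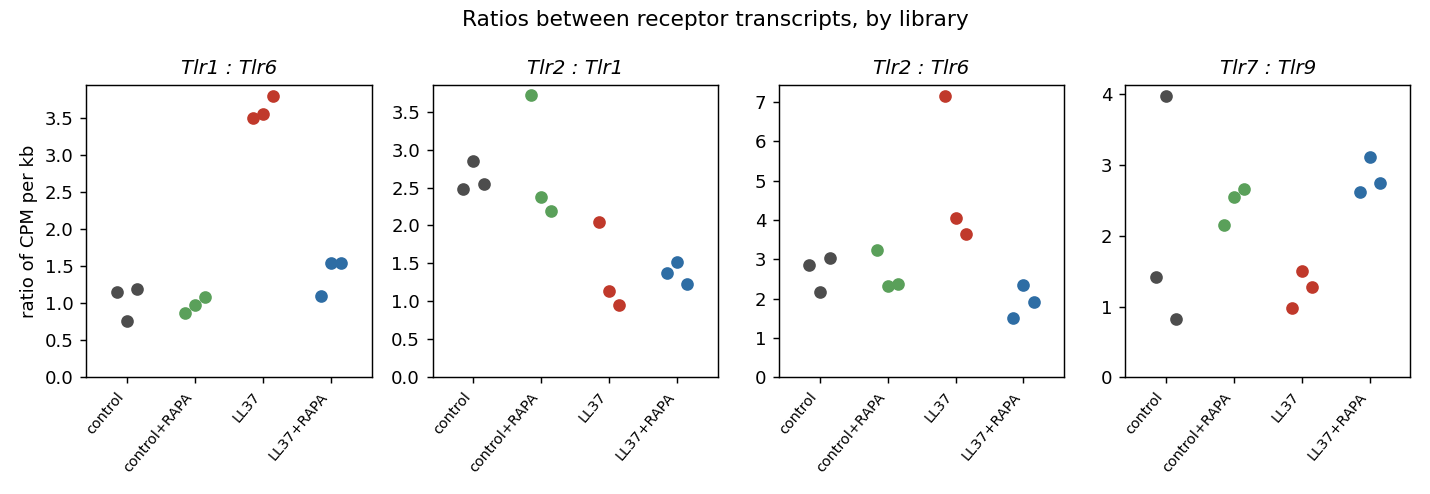
Ratios of CPM per kb of exon between pairs of receptor genes, 1 point per library in replicate order, 4 groups, axes from 0. The Tlr1 to Tlr6 ratio lies at 3.50 to 3.799 in LL37 and at 1.55 or less in all other libraries, and Tlr7 to Tlr9 is higher in LL37 + RAPA than in LL37.

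The mouse has further Toll-like receptor genes, Tlr11 and Tlr12, which were not members. Tlr11 had 5 to 24 counts per library and did not pass in any comparison (LL37 vs control 0.25, adjusted p = 0.711), and Tlr12, with 0 to 4 counts, was not tested.

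Genes that serve the receptors were followed in 5 lists of 68 genes, all tested. Co-receptors and chaperones came first. In LL37 vs control 7 of 10 rose and 1 fell (5 and 2 without LL37 replicate 3), where 21% of all tested genes rose. With 1 library left out, 4 to 7 rose and 1 to 2 fell. Cd14, which hands lipopolysaccharide to Tlr4, stood at 22.5, 11.4 and 29.6 CPM in control and at 538, 496 and 53.6 CPM in LL37 (log2 fold change 4.10, SE 0.77, adjusted p = 0.00135). Replicate 3 was again far below the other LL37 libraries, and below every LL37 + RAPA library (64.9, 207 and 83.2 CPM). Without it the log2 fold change was 4.64 (adjusted p = 1.98e-05). Ly96, the part of the Tlr4 complex that binds lipopolysaccharide, stood at 2.26, 1.90 and 1.95 CPM in control and at 4.57, 5.02 and 5.88 CPM in LL37 (1.34, adjusted p = 0.000662), with replicate 3 the highest.

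Both remained above control in LL37 + RAPA, Cd14 by 2.49 (adjusted p = 0.0397) and Ly96 by 0.78 (adjusted p = 0.039), and neither passed in LL37 vs LL37 + RAPA (adjusted p = 0.107 and 0.0739). Without LL37 replicate 3, Cd14 did pass there (2.13, adjusted p = 0.00376). Against control, Cd14 was lost without any 1 control or control + RAPA library and without LL37 + RAPA replicate 2 or 3 (adjusted p = 0.0519 to 0.174). Ly96 was lost without any 1 control library, control + RAPA replicate 2, or LL37 + RAPA replicate 2 or 3 (adjusted p = 0.0514 to 0.173).

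In LL37 vs LL37 + RAPA 2 of the 10 were higher in LL37 (20%, against 11.8% of all tested genes). They were Cd180, an inhibitory relative of Tlr4 (2.27, adjusted p = 0.0114), and Hsp90b1, the chaperone that folds the receptors (0.43, adjusted p = 0.0356). Hsp90b1 had also risen in LL37 vs control (0.79, adjusted p = 0.000787). Lower in LL37 were Cd36, a lipid scavenger receptor that assists Tlr2 (-2.04, adjusted p = 0.00145), and Tril, an accessory of Tlr4 (-1.26, adjusted p = 0.0295). The call of Cd180 was lost without LL37 + RAPA replicate 1 (adjusted p = 0.0528), that of Hsp90b1 without LL37 replicate 1 or 2 or LL37 + RAPA replicate 1 or 3 (0.105 to 0.135), and that of Tril without LL37 replicate 1 or 2 or any 1 LL37 + RAPA library (0.0611 to 0.102). Without LL37 replicate 3, Tril was also lower in LL37 than in control (-1.39, adjusted p = 0.000771), and Hsp90b1 was higher in LL37 + RAPA than in control (0.38, adjusted p = 0.0243). Cd36 had also fallen against control (-1.80, adjusted p = 0.000299). It was the 1 gene of the 5 lists that passed in the interaction (-1.57, adjusted p = 0.0414). Cd36 is also known from adipocytes, whose 5 markers fell in LL37 vs control. The part of these cells in the Cd36 values was not tested, and fewer cells and less RNA per cell cannot be told apart here. Unc93b1, which carries the endosomal receptors out of the endoplasmic reticulum, rose from 55.2 to 89.6 CPM in control to 108 to 146 CPM in LL37 (0.79, adjusted p = 0.0045) and did not pass in LL37 vs LL37 + RAPA (0.40, adjusted p = 0.124).

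Enzymes and transporters of the endosome formed the next list. Of 11 genes 7 rose in LL37 vs control and none fell, 6 were higher in LL37 than in LL37 + RAPA, and none passed in LL37 + RAPA vs control, where 21%, 11.8% and 5.03% of all tested genes passed as higher. Lgmn and Ctsb, proteases that cleave endosomal receptors, had log2 fold changes of 1.93 (adjusted p = 0.00012) and 1.12 (adjusted p = 0.000195) against control and of 1.16 (adjusted p = 0.0069) and 1.02 (adjusted p = 0.00187) against LL37 + RAPA. Without control replicate 1, LL37 replicate 3 or LL37 + RAPA replicate 1, Lgmn was also higher in LL37 + RAPA than in control (1.03, 0.80 and 0.90, adjusted p = 0.0209, 0.0353 and 0.046).

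Of 23 adaptors and kinases, 12 rose (52.2%) and 1 fell in LL37 vs control, where 21% of all tested genes rose. Against LL37 + RAPA, 11 were higher in LL37 (47.8%, where 11.8% of all tested genes were). In LL37 + RAPA vs control 1 passed as higher (4.35%, where 5.03% of all tested genes did). Myd88, the adaptor of all members but Tlr3, stood at 33.1, 35.1 and 37.4 CPM in control, at 140, 129 and 62.1 CPM in LL37 and at 35.7, 41.5 and 51.6 CPM in LL37 + RAPA. The LL37 libraries lay above all others, and the log2 fold changes were 1.65 against control (SE 0.25, adjusted p = 0.00037) and 1.36 against LL37 + RAPA (SE 0.25, adjusted p = 0.00397), while LL37 + RAPA vs control gave 0.29 (adjusted p = 0.514). Without LL37 replicate 3 these were 1.97, 1.65 and 0.32 (adjusted p = 1.09e-06, 1.41e-05 and 0.109). Irak4, the kinase recruited by Myd88, rose by 1.31 against control (adjusted p = 0.00012), Pik3ap1, a signaling adaptor that limits the response, differed by 2.21 from LL37 + RAPA (adjusted p = 0.00427), and Tab1, a partner of the kinase Map3k7, fell against control (-0.32, adjusted p = 0.0192). The gene that passed in LL37 + RAPA vs control was Btk, a kinase of B and myeloid cells (1.25, adjusted p = 0.0189). It was lost without control replicate 2 or 3 or LL37 + RAPA replicate 2 (0.0695 to 0.0943), and Tab1 without control replicate 3 or LL37 replicate 1 or 2 (0.0645 to 0.0877). Without LL37 replicate 3, Irak4 was also higher in LL37 + RAPA than in control (0.53, adjusted p = 0.0118).

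Of 15 negative regulators 4 rose and 1 fell in LL37 vs control, 26.7% and 33.3% as higher and in either direction, against 21% and 42.6% of all tested genes. In LL37 vs LL37 + RAPA 3 were higher in LL37 (20%, against 11.8%), and in LL37 + RAPA vs control none passed. With 1 library left out the counts of higher genes were 3 to 7, 1 to 5 and 0 to 1 in these comparisons. Without LL37 replicate 3 the counts were 7 higher and 0 lower, 5 higher, and 1 higher. In that fit 24.7%, 17.4% and 8.5% of all tested genes passed as higher. Socs1, an inhibitor of cytokine signaling, had log2 fold changes of 1.97 (adjusted p = 0.000446) and 1.34 (adjusted p = 0.00907) in the first comparisons, and Zc3h12a, an RNase that degrades inflammatory mRNA, 1.72 (adjusted p = 0.00035) and 0.90 (adjusted p = 0.0248). The deubiquitinase Cyld fell against control by a small amount (-0.29, adjusted p = 0.0383), a call that was lost without any 1 control or LL37 library and without LL37 + RAPA replicate 1 or 2 (adjusted p = 0.0502 to 0.198). Zc3h12a was lost against LL37 + RAPA without LL37 replicate 1 or 2 or LL37 + RAPA replicate 1 or 2 (0.0651 to 0.112). It was higher in LL37 + RAPA than in control without LL37 replicate 1 or 3 or LL37 + RAPA replicate 1 (0.0384, 0.00888 and 0.0359).

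Of 9 endogenous ligands 5 rose in LL37 vs control (55.6%, against 21% of all tested genes). In LL37 + RAPA 3 of 9 were higher than in control (33.3%, against 5.03% of all tested genes). S100a9, a neutrophil protein and Tlr4 ligand, stood at 4.09, 2.46 and 28.5 CPM in control, at 767, 1098 and 91.8 CPM in LL37 and at 20.6, 75.5 and 102 CPM in LL37 + RAPA. LL37 replicate 3 lay far below the other LL37 libraries and inside the LL37 + RAPA range, while LL37 did not overlap with control. The log2 fold change was 5.80 (SE 1.17, adjusted p = 0.00208) against control and 3.31 (SE 1.03, adjusted p = 0.0367) against LL37 + RAPA, or 6.35 (adjusted p = 0.000277) and 3.82 (adjusted p = 0.00585) without LL37 replicate 3. Against LL37 + RAPA the call was lost without control + RAPA replicate 3, LL37 replicate 1 or 2, or any 1 LL37 + RAPA library (0.0506 to 0.122). In LL37 + RAPA vs control S100a9 passed without control replicate 3 (4.32, adjusted p = 0.0396).

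Tnc, a matrix protein and Tlr4 ligand, stood at 868, 956 and 256 CPM in LL37, all above LL37 + RAPA (115, 244 and 159 CPM) and control (27.7, 20.9 and 32.7 CPM). It rose by 4.68 (adjusted p = 2.66e-05), stayed 2.67 above control in LL37 + RAPA (adjusted p = 0.0018) and differed by 2.01 between LL37 and LL37 + RAPA (adjusted p = 0.00733), and without LL37 replicate 3 these values were 5.10, 2.70 and 2.40 (adjusted p = 3.29e-07, 3.47e-05 and 9.17e-05). Bgn, a proteoglycan ligand of Tlr2 and Tlr4, was the 1 gene of 9 that was lower in LL37 than in LL37 + RAPA (-0.82, adjusted p = 0.0246), and it was higher in LL37 + RAPA than in control (1.56, adjusted p = 0.000967). The first of these calls was lost without LL37 replicate 1 or 2 or LL37 + RAPA replicate 2 or 3 (0.0555 to 0.0998). Camp, the mouse cathelicidin gene, did not pass in LL37 vs control (0.35, SE 1.03, adjusted p = 0.81), at 0 to 0.761 CPM over all libraries.

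Over Tlr11 and these 5 lists together, 69 genes, 35 rose and 3 fell in LL37 vs control, where 21% of all tested genes rose against 50.7% of the 69. In LL37 vs LL37 + RAPA 25 were higher and 3 lower in LL37, 36.2% as higher against 11.8% of all tested genes. In LL37 + RAPA vs control 7 were higher and none lower, 10.1% against 5.03%, and in control + RAPA vs control none passed. With 1 library left out the counts of higher genes were 26 to 41, 12 to 32 and 3 to 11 in the first 3 comparisons. Without LL37 replicate 3 they were 41, 32 and 11 (59.4%, 46.4% and 15.9%, against 24.7%, 17.4% and 8.5% of all tested genes). The medians of log2 fold change in the first 3 of these comparisons were 0.51, 0.39 and 0.15, below the members' 1.42, 0.75 and 0.71. Exons of Cd180, Ctsb, Irak4, Myd88, Tnc and Tril overlap a gene on the other strand, and those of Hsp90b1 genes on both strands. Since the strand setting of the counting was not given in the sources used here, reads in those overlaps cannot be told apart.

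The genes whose profiles over the 12 libraries were nearest to each member were found by the mean absolute difference of log2 CPM after centring each gene on its own mean. This measure describes likeness over 12 libraries that share groups. Nearest to Tlr1 was Ccr7, a chemokine receptor (0.26), followed by Tmem8 and Gpr35, nearest to Tlr2 Igsf6 (0.27), Smim3 and Mcoln2, and nearest to Tlr6 Fmnl1 (0.13), Gmfg and Pstpip1. Tlr4 was nearest to Msn (0.12), Adamts1 and Apaf1, and Tlr5 to Hes7 (0.09), Klf13 and Tmem184b.

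Among the endosomal members, Tlr3 was nearest to Ly6e (0.09), Slfn5 and Zup1, and Tlr7 to Cd48 (0.16), Sdc3 and Ly86, a partner of Cd180. Tlr8 was nearest to Basp1 (0.17), Ctsc and the macrophage marker Cd68, Tlr9 to Bst2 (0.30), Siglec1 and Cd180, and Tlr13 to Ccr2, the monocyte chemokine receptor (0.25), Tfpi2 and Pirb. Between members the nearest pair was Tlr4 and Tlr8 (0.25), followed by Tlr7 and Tlr8 (0.30), and the farthest was Tlr1 and Tlr5 (1.53). The partners Tlr1 and Tlr2 differed by 0.50 and the neighbours Tlr1 and Tlr6 by 0.65. Of the genes named here, Fmnl1, Hes7, Msn, Sdc3 and Slfn5 share exon bases with a gene on the other strand, as Cd180 does.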

How the data were processed

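Raw read counts per gene were deposited by the authors for each of 12 libraries of mouse skin, without normalization or pooling. The study's methods name HTSeq 0.6.0 for counting, while the submitters' processing notes list HISAT2 2.0.5, StringTie 1.3.3b, featureCounts 1.5.0-p3, DESeq2 1.16.1 and the mm10 genome. The strand setting and the treatment of multi-mapping reads were not given in the sources used here. Libraries were made from total RNA with an Illumina TruSeq kit. Groups and replicate numbers come from the labels.

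Counts were fitted in R 4.3.3 with edgeR 4.0.16 (TMM, filterByExpr by group, quasi-likelihood F-test, 12 libraries in 1 fit, Benjamini-Hochberg over 17993 genes). CPM are TMM-normalized, exon lengths come from GENCODE M21, and log2 CPM profiles used a prior count of 2. Intervals are at 95%. Ratios were compared by exact permutation. No 2 libraries of a group agreed within sampling noise.

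The members and lists were chosen with earlier results of these data known. Named genes are the members, the 2 genes with the smallest p per list, direction and comparison, Cd14, Ly96, Myd88, Unc93b1 and Camp, and the 3 genes most like each member. Each result was recomputed with other normalizations and filters, with DESeq2 1.42.0, at unadjusted p-values, under the DEG limit, in fits restricted to the groups of a comparison, with a block for the label's replicate number, and without each library in turn, which for the pathway genes was added after seeing the data.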

Additional observations from a re-analysis of the deposited data

How the results depend on the processing

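Over the alternatives, members passing ranged as follows. With 1 library left out, LL37 vs control gave 6 to 9 and LL37 vs LL37 + RAPA 2 to 6. LL37 + RAPA vs control gave 1 to 4, control + RAPA vs control 0 to 0 and the interaction 0 to 2. Over all tested genes, 2819 to 4541, 896 to 3200 and 312 to 1563 passed as higher in the first 3 comparisons. At unadjusted p-values LL37 vs LL37 + RAPA gave 7 members, control + RAPA vs control 3 and the interaction 1. With the replicate number as a block, LL37 + RAPA vs control gave 1 member, Tlr13, and the block changed no count elsewhere. Same-numbered libraries correlated at -0.19 to 0.26 in their deviations from the group means, so the samples share only a number. Apart from single libraries left out, 473 of 490 values kept their direction and side of the threshold, 10 passed anew, 6 were lost and 1 changed sign. That one was Tlr3 in LL37 + RAPA vs control, at 0.044 with scaling to library size only.

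Signs that turned when a library was left out belonged to log2 fold changes that did not pass. In control + RAPA vs control, Tlr4 ranged from -0.21 to 0.14 and Tlr5 from -0.14 to 0.16. Tlr5 ranged from -0.21 to 0.086 in LL37 vs control, and Tlr9 from -1.29 to 0.10 in LL37 + RAPA vs control. The interaction ranged from -0.16 to 0.55 for Tlr6, from -0.36 to 0.26 for Tlr7, from -0.12 to 0.68 for Tlr8, from -0.34 to 1.05 for Tlr9 and from -0.84 to 0.014 for Tlr13. The causes were not tested.

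Libraries of 15734559 to 23271784 counts left Tlr9 with 15 to 19 counts in some libraries of the control groups, and counts cover counting error only. No fit of the interaction without other groups exists, since it uses all 4.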
